A study of Sus scrofa with 10 samples.

Results

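The cytosolic ribosomal proteins, the protein part of the particle that makes protein in the cytoplasm, were followed by their mRNAs in the liver of 10 backcross pigs. A gene was a member if its only symbol on the array began with RPL or RPS and a digit, or was RPLP0, RPLP1, RPLP2 or RPSA. It also needed a probe set, the group of short probes that reads 1 transcript, with a mean log2 value of at least 4 over the 10 animals. Genes of the S6 kinases and symbols ending in L and a digit were left out. The rule named 61 genes, of which 59 passed, among 4730 genes tested in all. RPL26 and RPS15A, with means of 2.73 and 2.19, did not pass. Of the members, 33 were counted as genes of the large (60S) subunit and 23 as genes of the small (40S) subunit. The other 3 were taken in by their letters and counted apart. They are RPS19BP1, which is not a ribosomal protein, and the paralogs RPS27L and RPL36AL.

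All 10 animals were females of the BC1_LD backcross, bred from Iberian boars of the Guadyerbas line and Landrace sows, with F1 males mated again to Landrace sows. They were kept under 1 standard management and feeding system, no animal received a treatment, and slaughter was at a similar age. The 5 H and 5 L animals (H1 to H5, L1 to L5) stood at opposite ends of a first principal component of carcass and muscle fatty acid traits. The L end had higher proportions of saturated and monounsaturated fatty acids, and the H end had higher proportions of polyunsaturated ones. The groups were therefore chosen on a mix of traits of the muscle and not on the liver. Each animal gave 1 liver RNA and 1 GeneChip Porcine array, and the animal is the replicate. Full sibs were avoided within a group, while some sibs stood in opposite groups. The sources used here do not name them.

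A ribosome joins a small subunit, which holds the mRNA and reads the codons, to a large subunit, which forms the peptide bonds and carries a stalk that recruits translation factors. Its proteins are needed in equal numbers, apart from the stalk proteins, and their mRNAs are among the most abundant of a cell. Nearly all of these mRNAs start with a terminal oligopyrimidine tract, through which mTOR signalling sets their translation together. Liver cells secrete most of the plasma proteins and are rich in ribosomes.

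The tissue label matched its defining markers, since 16 of 18 hepatocyte genes were measured, with ALB at a mean of 15.57 and APOA1 at 15.17. Of 18 T and NK cell markers 3 were tested, CD8A (4.90), CD247 (5.00) and GNLY (5.27). CD3E lay at 2.22, near the lowest value of the table, 2.19, and some, such as CD5 and ZAP70, had no probe set. Of 16 B and plasma cell markers 2 were tested, JCHAIN (10.03) and CD74 (5.35). Macrophage markers were present, with 9 of 17 tested. By the brightest probe set, CD5L stood at 13.23, C1QC at 11.41 and CD163 at 10.24, while MARCO and ITGAM lay near the lowest value. Averaged over their used probe sets, CD5L was at 11.75 and CD163 at 9.05. Of the macrophage list, FCER1G alone was past an unadjusted p of 0.05 (-0.41, SE 0.146, unadjusted p = 0.0187, adjusted p = 0.985 by limma). No gene was called between H and L at an adjusted p under 0.05, so 0% of the 4730 genes were past that threshold, and no array was left out. In such bulk tissue, fewer cells of a type and less RNA per cell cannot be told apart.

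Ribosomal protein probe sets were among the brightest of the array. Of 93 probe sets with such a symbol, 80 reached the mean of 4, and 56 of these reached 12. A further 12 lay between 8 and 12, and 12 between 4 and 8. The 13 that were left out included 7 within 0.5 of the lowest value of the table. At gene level the means ran from 5.40 for RPL30, a 60S protein, to 14.71 for RPS29, a small zinc-binding protein of the 40S subunit. A mean of at least 12 was reached by 37 of the 59 genes, and of at least 14 by 7. Brightness depends on the probes, so these levels do not rank the mRNAs by amount.

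The probe sets of the same gene often disagreed in level. Of the 59 genes, 41 had 1 usable probe set and 18 had several, and in 14 of the latter the brightest and the dimmest lay more than 4 log2 units apart. The widest difference was that of RPL6, a 60S protein, between 13.60 and 4.90. RPL12, which sits at the base of the stalk, followed with 12.55, 6.41 and 4.23. RPL7, a 60S protein on the outside of the subunit, was read at 14.20 and 6.26. RPS28, a 40S protein near the mRNA exit, was read at 13.73 and 5.83. In 52 of the 59 genes the brightest probe set was at 12 or above, so the low gene values of RPL12 (7.73) or RPL6 (9.25) come from averaging in a dim one.

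**Figure D1:**
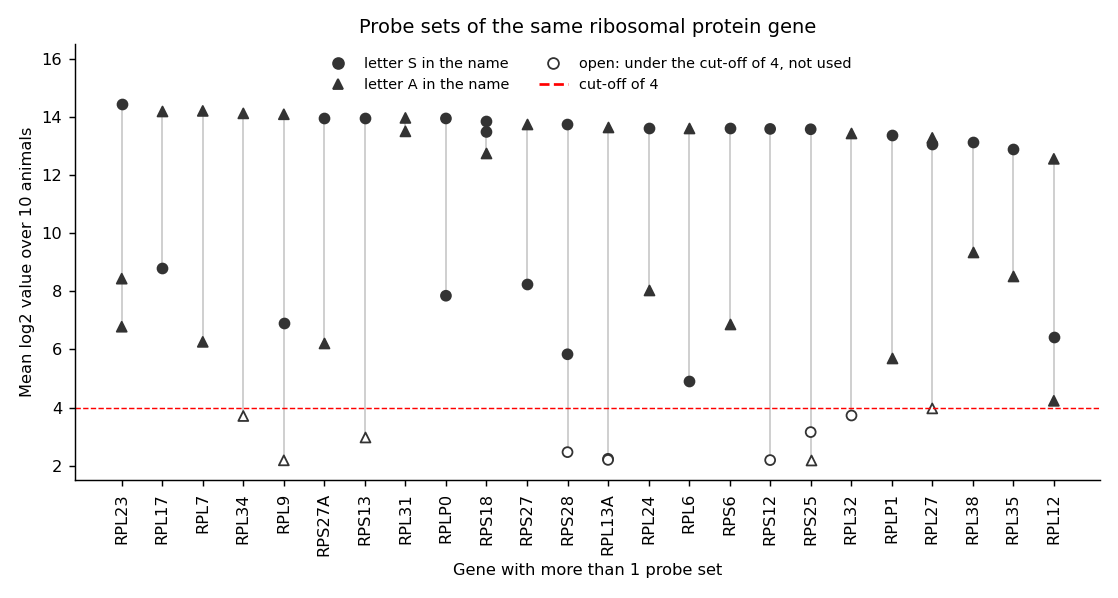
Mean log2 value over 10 animals (vertical axis) of each probe set of the ribosomal protein genes that have more than 1, with the cut-off of 4 as a dashed line, circles for the letter S and triangles for the letter A in the probe set name, and open symbols for probe sets not used. A reader should see a bright probe set for every gene and, for most, a second one many log2 units lower, as for RPL6 at 13.60 and 4.90.

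In 8 genes the 2 probe sets carried the same cluster name and differed in a letter, S or A, which the sources used here do not explain. The S probe set was brighter in 3 of them and the A probe set in 5 others, and the gap ran from 5.43 for RPL17 to 11.40 for RPL13A. The dim probe sets also followed the animals differently. Over 16 pairs of used probe sets more than 4 units apart, the median correlation over the 10 animals was 0.260, and the dimmer probe set had the larger SD in 13. Probe sets at 12 or above had a median SD between animals of 0.105, against 0.222 for those between 4 and 12. In 5 used probe sets, all with a mean under 8, at least 3 arrays held the same value within 0.001. At the cut-off, the dimmest used probe set was that of RPL12 at 4.23, and the next was that of RPL6 at 4.90. Just outside it lay probe sets of RPL27 at 3.97, RPL32 at 3.75 and RPL34 at 3.71, genes that remained members through another probe set.

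The main question of the design is whether the liver of H and L animals differed. For the ribosomal proteins, none passed the test. By limma over all 4730 genes, 0 of 59 passed an adjusted p of 0.05, and 0 of 59 had an unadjusted p under 0.05, where 2.64% of all genes did. With a trended and robust prior the same count was 0. The H value was lower in 36 genes (61.0%) and higher in 23, and over all genes 62.8% were lower. The median log2 difference, H minus L, was -0.014 for the ribosomal proteins and -0.043 for all genes. Its median size without the sign was 0.042 against 0.096. The individual differences ran from -0.15 (RPL30) to 0.17 (RPL7), with 54 of 59 under 0.1 in size. The ranges of the H and L animals overlapped in all 59 genes. This was not counted over all 4730 genes, so it shows nothing particular to the ribosomal proteins.

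The arrays also bounded how large a difference could be. All 59 of the 95% confidence intervals included 0. The bound farther from 0 had a median of 1.17-fold and was under 1.2-fold in 39 genes, and the widest, for RPS27, reached 1.39-fold. These bounds hold for the GCRMA scale and for each gene on its own. The median difference was -0.014 for the 33 genes of the 60S subunit and -0.010 for the 23 of the 40S subunit. At the level of single probe sets, 0 of 80 had an unadjusted p under 0.05, where 3.09% of all 11756 probe sets did.

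**Figure D2:**
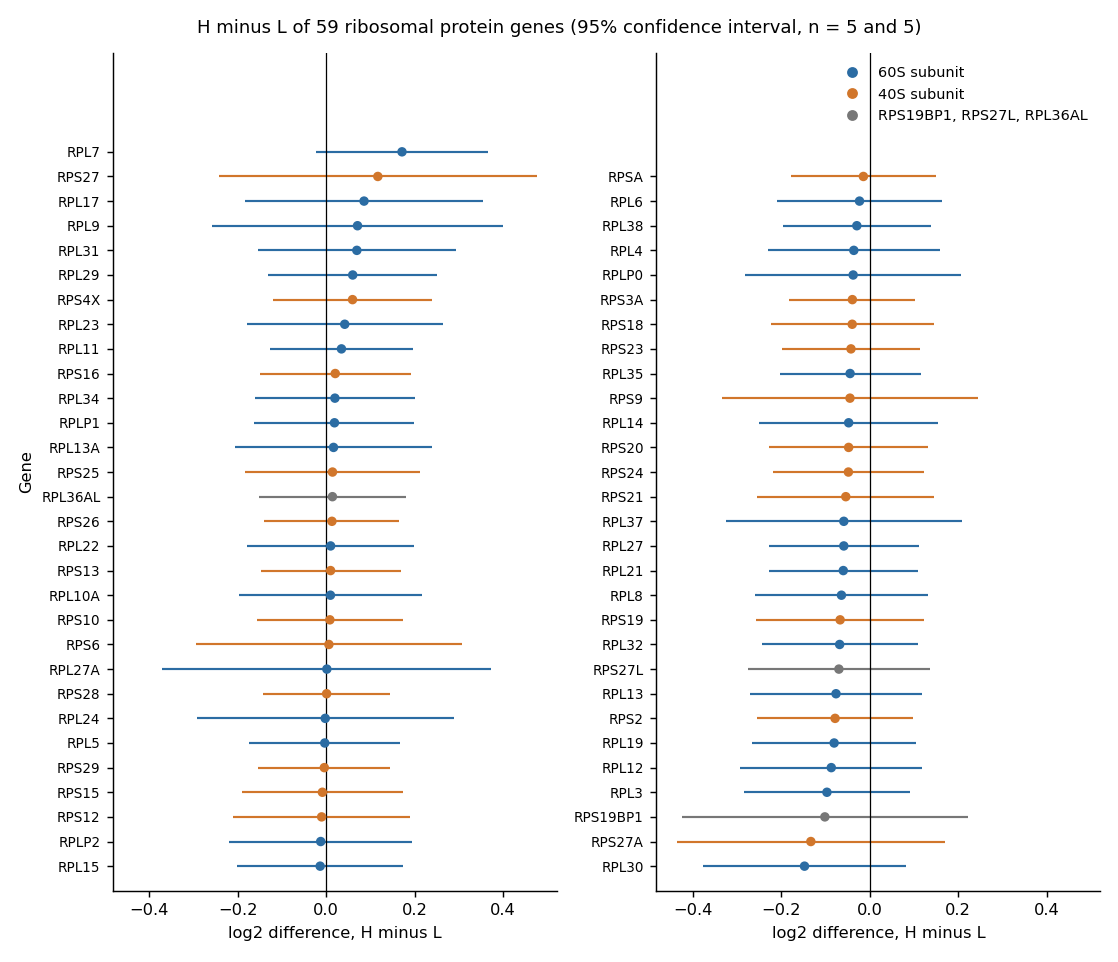
Log2 difference, H minus L (horizontal axis), of each of the 59 genes with its 95% confidence interval from limma (5 against 5 animals), ordered from highest to lowest and coloured by subunit. Every interval crosses 0, and the points lie between -0.15 (RPL30) and 0.17 (RPL7).

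RPL7 had the smallest p of the members. It read 10.39, 10.13, 10.23, 10.49 and 10.33 in H1 to H5, and 10.13, 10.26, 10.22, 10.05 and 10.05 in L1 to L5. The 3 highest values were of H animals, but H2 lay level with L1 and the groups overlapped. The difference was 0.17 (SE 0.087) with limma's unadjusted p of 0.0768 and an adjusted p of 0.985. It was 0.11 in the bright probe set and 0.23 in the dim one. Without H2, the difference was 0.22 and its unadjusted p 0.0299.

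Among the core 60S proteins, RPL3 lies next to the peptidyl transferase centre. Its values were 12.94, 12.97, 12.85, 12.96 and 13.09 in H1 to H5 and 12.93, 12.98, 13.18, 13.22 and 12.98 in L1 to L5, a difference of -0.096 (SE 0.085, adjusted p = 0.985 by limma). The groups overlapped over most of their range. RPL19, which reaches into a bridge between the subunits, differed by -0.080 (SE 0.084), and RPL29, a small surface protein, by 0.060 (SE 0.086). RPL17, at the mouth of the tunnel through which the new chain leaves, differed by 0.086 (SE 0.121). Its bright probe set alone gave -0.042, so the sign depended on the probe set.

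RPL5 and RPL11 bind the 5S rRNA and, when not built into a ribosome, the p53 regulator MDM2. RPL5 read 13.86, 13.79, 13.70, 13.61 and 13.84 in the H animals and 13.78, 13.80, 13.74, 13.85 and 13.64 in the L animals. RPL11 read 13.47, 13.55, 13.38, 13.32 and 13.51 in the H animals and 13.38, 13.43, 13.46, 13.47 and 13.31 in the L animals. Neither gene separated the groups, with differences of -0.0032 (SE 0.077) and 0.035 (SE 0.072).

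The stalk is built on RPLP0, which anchors the acidic proteins RPLP1 and RPLP2. RPLP0 ranged from 10.64 to 11.03 in H and from 10.74 to 11.21 in L, RPLP1 from 9.40 to 9.75 and from 9.46 to 9.60, and RPLP2 from 11.74 to 12.05 and from 11.76 to 12.08. The 3 genes differed by -0.037, 0.019 and -0.012 between the groups, all within their standard errors of 0.110, 0.081 and 0.093. RPLP0 and RPLP1 each average a probe set above 13 with a dim one, at 7.85 and 5.71.

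RPL30, a 60S protein read by a single dim probe set, had the lowest difference. It read 5.32 on 8 of the 10 arrays, 5.82 in L1 and 5.56 in L3. The difference of -0.15 (SE 0.104) came from these 2 animals, and without L1 it was -0.059. RPL37, a zinc-binding 60S protein with 1 dim probe set as well (8.64), spread from 8.34 in H1 to 8.97 in L1 and differed by -0.058 (SE 0.120).

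In the 40S subunit, RPS6 is the protein that the S6 kinases phosphorylate downstream of mTOR. It read 10.34, 10.60, 9.88, 10.05 and 10.37 in H1 to H5, and 10.46, 10.18, 10.13, 10.25 and 10.19 in L1 to L5. H animals held both the highest and the lowest value, and the difference was 0.0061 (SE 0.136). The bright probe set, at 13.60, had a SD of 0.086, and the dim one, at 6.89, had 0.374, so most of the spread was in the dim probe set.

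RPS27A is made as a fusion with ubiquitin. Its H values were 10.27, 9.61, 10.10, 9.83 and 10.33 and its L values 10.10, 10.32, 10.11, 10.17 and 10.11, which put H2 and H4 below all L animals. The difference was -0.13 (SE 0.137). The bright probe set gave 0.024 and ran only from 13.87 to 14.07, while the dim one fell to 5.27 in H2. RPS27, a zinc-finger protein, read 11.11, 11.22, 11.02, 10.89 and 11.06 in H1 to H5 and 11.02, 11.25, 11.04, 11.11 and 10.31 in L1 to L5. L5 alone stood apart, through the dim probe set (7.02 there, 8.09 to 8.68 in the other animals). The difference of 0.117 (SE 0.162) became -0.042 without L5.

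RPSA, which also serves as a laminin receptor, read from 12.85 to 13.09 in H and from 12.96 to 13.12 in L. RPS4X, encoded on the X chromosome in mammals, ranged from 12.75 to 13.10 and from 12.73 to 12.89. RPS19, the gene most often mutated in human Diamond-Blackfan anaemia, ranged from 13.32 to 13.52 and from 13.38 to 13.68. RPS2, at the mRNA entry of the small subunit, ranged from 13.79 to 14.08 and from 13.94 to 14.14. Their differences were -0.014 (SE 0.074), 0.060 (SE 0.081), -0.066 (SE 0.086) and -0.078 (SE 0.079), so none exceeded its own standard error.

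The 3 genes taken in by their letters were described with the rest. RPS19BP1 is a partner of RPS19 and not a ribosomal protein. It ranged from 8.72 to 9.26 in H and from 8.69 to 9.33 in L, with a difference of -0.101 (SE 0.146). The paralogs RPS27L and RPL36AL differed by -0.069 (SE 0.092) and 0.014 (SE 0.075). RPS27L, a close relative of RPS27, was lowest in H4 (11.44), whereas its L values lay within 11.75 to 11.83. Probe sets of near-identical copies can share target RNA, and this holds for pseudogenes of any of these genes too.

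The ribosomal protein mRNAs had a smaller spread between animals than most genes tested. The SD within groups had a median of 0.116 over the 59 genes, against 0.222 over all genes and 0.176 over the 239 other genes with a mean of at least 12. Some lists of bright genes were as steady, with 0.114 for the hepatocyte markers (median level 14.81) and 0.130 for the other genes with terminal oligopyrimidine mRNAs. The part of the upper end of the signal in this was not tested, and without probe sets at 14 or above the members' median SD was 0.117. In 53 of 59 genes the SD was under the median of all genes. The steadiest gene was RPS3A, a 40S protein that contacts initiation factors, with 14.03, 13.99, 13.91, 13.91 and 14.05 in H and 13.99, 14.01, 14.05, 14.07 and 13.96 in L. All 10 values fell within 0.169. RPS28 (SD 0.058), RPS29 (0.066), RPS26 (0.072), which contacts the mRNA, and RPS23 (0.077), a protein of the decoding centre, were next, and all 5 belong to the 40S subunit. RPS28 averages in a dim probe set, and its bright one had an SD of 0.080. With the brightest probe set of each gene, the steadiest were RPS3A (0.056), RPL6 (0.061), RPL23 (0.066), RPS29 (0.066) and RPS26 (0.072), of which RPL6 and RPL23 are 60S proteins.

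The 6 genes above the median of all genes were RPL27A (0.283), RPS27 (0.272), RPL9 (0.247), RPS19BP1 (0.241), RPS27A (0.223) and RPS6 (0.222). Of these, RPS27, RPL9, RPS27A and RPS6 average in a dim probe set, and their brightest probe sets alone had SDs of 0.127, 0.115, 0.072 and 0.086. With the brightest probe set of every gene, 2 members, RPL27A and RPS19BP1, stayed above the median. RPL27A, a 60S protein with a single bright probe set, was the widest. It read 14.08, 14.45, 14.26, 13.65 and 14.14 in H, and 13.73, 14.12, 14.34, 14.39 and 14.001 in L. The spread was of like size in both groups (SD 0.298 and 0.267), and the difference between them was 0.0015 (SE 0.167).

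**Figure D3:**
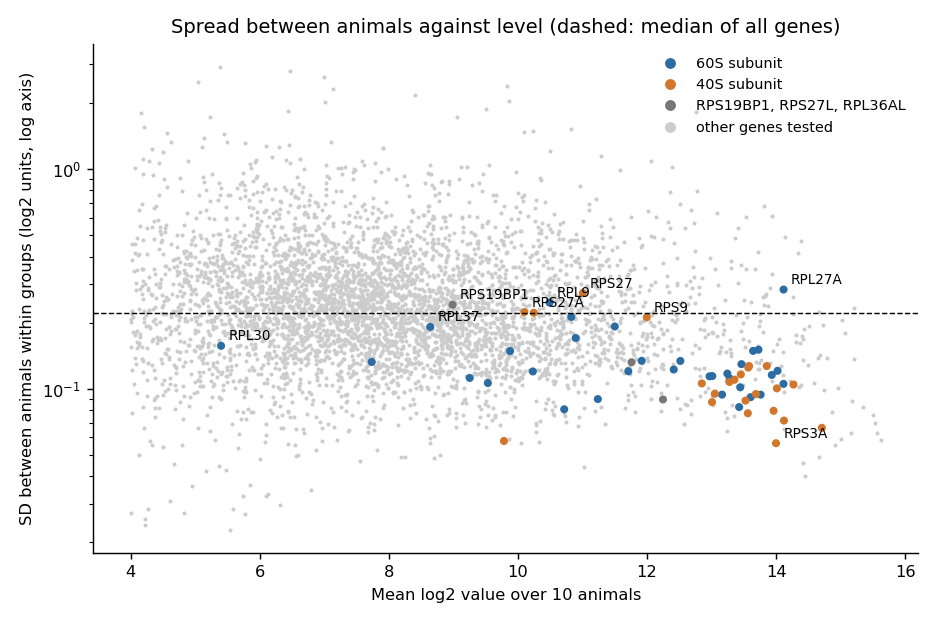
SD between animals within groups (vertical axis, log2 units on a log axis) against mean log2 value over 10 animals (horizontal axis) for the ribosomal protein genes, coloured by subunit, and the other genes tested (grey), with the median of all genes, 0.222, dashed. The 13 genes with an SD under 0.02 are not drawn. Most coloured points lie at the bright end and below the line, with RPL27A (0.283) as the bright exception.

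The small variation that there was ran through most of the genes together. Each gene was centred on its own mean over the animals, and the mean over the 59 genes was taken for each animal. It was 0.035, 0.042, -0.096, -0.083 and 0.061 in H1 to H5 and -0.017, -0.013, 0.065, 0.091 and -0.085 in L1 to L5. L4, L3 and H5 stood highest and H3, L5 and H4 lowest, so each group had animals at both ends. The group means were -0.0082 ± 0.075 (SD, n = 5) in H and 0.0082 ± 0.070 in L, and the whole range was 0.187.

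Counts of genes put the same animals at the ends, in a slightly different order. In L4, 50 of the 59 genes lay above their own mean, in H5 49 and in L3 43, against 7 in L5, 9 in H3 and 10 in H4. L4 held the highest value of the 10 animals in 16 genes, whereas H3 held the lowest in 18 and H4 in 15. The 60S and 40S genes moved alike, with a range over animals of 0.188 and 0.177. In L4 they averaged 0.085 and 0.089, and in H3 -0.103 and -0.083.

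**Figure D4:**
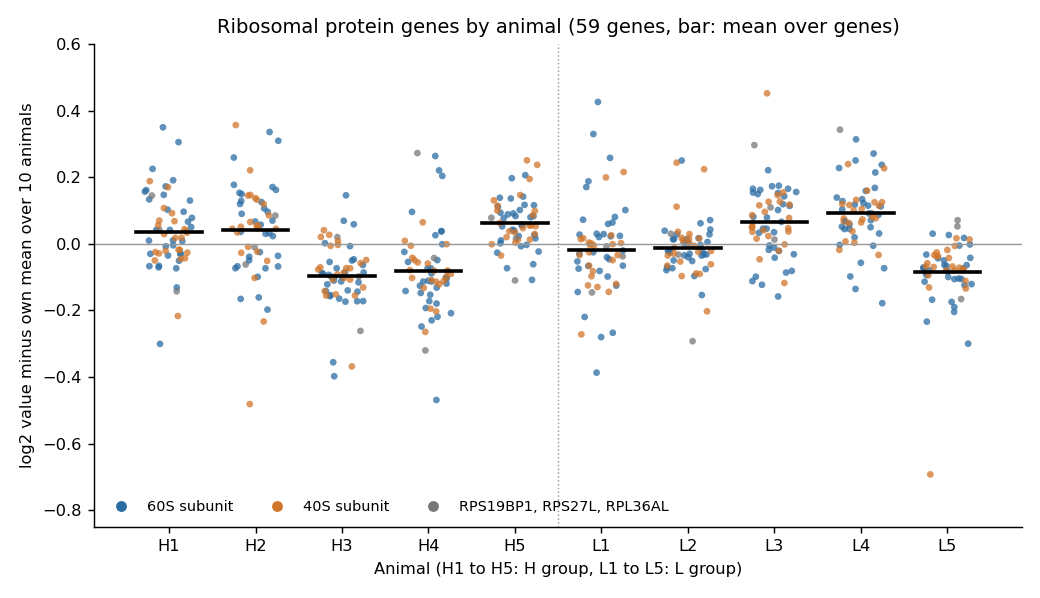
Log2 value minus the gene's own mean over the 10 animals (vertical axis) for each of the 59 genes in each animal (horizontal axis), with the mean over genes as a black bar and points coloured by subunit. The bars lie highest in L4 (0.091) and lowest in H3 (-0.096), both groups have bars on either side of 0, and the lowest point is RPS27 in L5.

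The order of the animals was set beside other measures. The mean deviation of all genes was 0.058 in L3 and 0.060 in L4, which were high for the ribosomal proteins, but also 0.037 in L5, which was low. The difference between the 3' and 5' probe sets of GAPDH is a sign of RNA quality. It was 1.70 in H3, 1.86 in H4 and 1.98 in L5, and 1.76, 1.72 and 1.86 in H5, L3 and L4. The highest values were 2.70 in L1 and 2.39 in H2, animals between these in the ribosomal proteins. A probe set for 18S rRNA was lowest in L4 (10.35), and then in L5 (10.86) and H1 (10.98), animals far apart in the ribosomal proteins. Another 18S rRNA probe set had a different order, lowest in H4 (8.79) and at 9.20 in L4, L5 and H1. Leukocyte markers, of which 7 of 11 were measured, deviated by 0.436 in L3, 0.252 in H5 and 0.030 in L4. In H3, L5 and H4 they deviated by 0.367, 0.378 and -0.404. Their summed levels ranged from 9.49 to 10.34 in H and from 9.53 to 10.46 in L. The part in the pattern of the leukocyte markers, or of any other of these measures, was not tested.

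Pairs of ribosomal protein genes were correlated over the 10 animals after each group was centred on its mean. Over 1711 pairs the median Pearson r was 0.419, and 82.2% of the pairs were above 0 and 41.9% above 0.5. Over all pairs of tested genes the median was 0.025, with 52.3% above 0 and 11.9% above 0.5. The other genes with a mean of at least 12 had a median of 0.018. A high median was not particular to the ribosomal proteins. It was 0.474 for elongation factors, 0.529 for ribosome assembly factors, 0.618 for macrophage markers and 0.792 for leukocyte markers. Other lists were lower, such as initiation factors (0.195) and hepatocyte markers (0.127). All these pairs share the same arrays and normalization, and the values describe these 10 animals without a test.

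**Figure D5:**
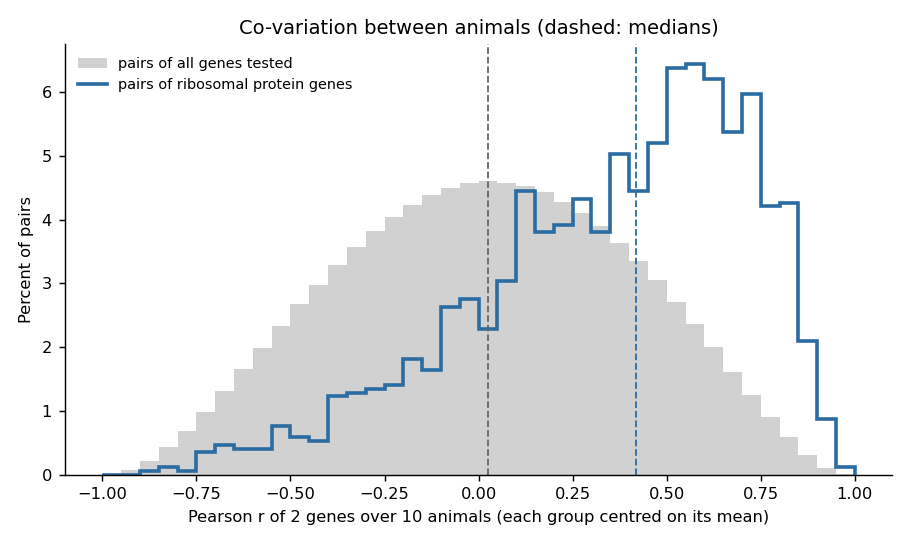
Percent of gene pairs (vertical axis) by their Pearson r over 10 animals, each group centred on its mean (horizontal axis), for pairs of ribosomal protein genes (blue line) and pairs of all genes tested (grey), with medians dashed. The blue line is shifted to the right, with a median of 0.419 against 0.025.

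The correlation differed with the level of the probe sets. In the 37 genes whose used probe sets were all at 12 or above, the median r was 0.557, and in the 22 with a used probe set under 12 it was 0.236. The latter also hold genes read only just under 12, such as RPS9 and RPLP2. It was 0.376 within the 60S and 0.481 within the 40S subunit. Against the mean of the other members, RPS3A had the highest r, 0.953, followed by RPS23 (0.932), RPL29 (0.921), RPL27 (0.920) and RPL11 (0.914). An r above 0 was found for 55 of 59 genes, and above 0.5 for 45.

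Of the 4 genes below 0, RPLP1 (-0.520) and RPL7 (-0.137) average a bright and a dim probe set, while RPL37 (-0.208) and RPL30 (-0.031) have a single dim one. With the brightest probe set of each gene, RPLP1 stood at 0.110 and RPL7 at 0.096, and RPL37 (-0.297) and RPL30 (-0.191) were the only members still below 0. The median r was 0.701 in place of 0.628. Among genes with a single used probe set at 12 or above, RPL13A (0.174), a 60S protein, RPS12 (0.236), a 40S protein, and RPS2 (0.291) had the lowest r.

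Other genes of protein synthesis were taken from lists, and none passed the adjusted threshold between H and L. The counts below are at an unadjusted p under 0.05, where 2.64% of all genes lay. Elongation factors bring tRNA to the ribosome and move it along the mRNA. Of 10 genes listed under this name, not all of which do so themselves, 6 were tested and 1 was past this threshold. This was EIF5A, which relieves stalled ribosomes, with a log2 difference of -0.29 (SE 0.115, unadjusted p = 0.0277, adjusted p = 0.985 by limma). It read 10.35, 10.24, 10.10, 10.28 and 10.48 in H and 10.38, 10.65, 10.85, 10.69 and 10.36 in L, so the groups overlapped. Over the animals, the 6 tested genes of this list, EEF1E1 among them, had a median r of 0.753 with the members' mean.

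Of 28 initiation factors tested of 36, and of 17 of 23 other genes with terminal oligopyrimidine mRNAs, a list that shares elongation factors with the first, 0 had an unadjusted p under 0.05 in either direction. Their median r with the members' mean was 0.307 and 0.438. Of 50 ribosome assembly factors tested of 76, 1 was past it, RSL24D1, a 60S maturation factor, with 0.36 (SE 0.131, unadjusted p = 0.0197, adjusted p = 0.985 by limma). The assembly factors were correlated among themselves (median r 0.529) but less with the members' mean (0.243). Their mean ranged over 0.564 between animals, against 0.187 for the ribosomal proteins.

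Of the mTOR and S6 kinase pathway, 20 of 44 genes were tested. The kinase AKT1 (-0.39, SE 0.130, unadjusted p = 0.0122 by limma) and SESN1, which restrains mTOR (0.29, SE 0.125, unadjusted p = 0.0400), were past it, both with an adjusted p of 0.985. AKT1 read 6.90, 7.25, 6.998, 6.76 and 6.72 in H and 7.22, 7.06, 7.44, 7.60 and 7.29 in L. Only H2 among the H animals lay within the L range. Of the 6 quality control genes tested of 16, 0 had an unadjusted p under 0.05. The mitochondrial ribosomal proteins, which belong to a separate ribosome, had 57 of 58 genes tested. Of these 1 was past it, MRPL50, with 0.29 (SE 0.127, unadjusted p = 0.0440 and adjusted p = 0.985 by limma). Their median difference was -0.018 and their median pairwise r 0.159, below the 0.419 of the cytosolic genes.

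The 10 other genes whose values over the 10 animals were most like the members' mean were MARS (r = 0.944), ERCC1 (0.871), NDUFAF3 (0.856), OSGEP (0.852), DYNLRB1 (0.852), EEF1G (0.850), ARHGAP1 (0.846), PSMC5 (0.829), CNPY2 (0.823) and TUBGCP2 (0.818). They were picked as the highest of all non-member genes, so the values carry no test. The groups were not centred on their means for these r, unlike for the r of the members and lists above. MARS encodes the synthetase that charges methionine to tRNA, OSGEP a tRNA-modifying enzyme and EEF1G an elongation factor subunit. MARS read 8.24, 8.24, 7.90, 8.004 and 8.41 in H1 to H5 and 8.23, 8.07, 8.54, 8.51 and 7.93 in L1 to L5. It was thus highest in L3, L4 and H5 and lowest in H3, L5 and H4, the same animals as for the ribosomal proteins.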

How the data were processed

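Liver RNA of 10 animals was measured on GeneChip Porcine arrays. Scanning used GCOS, and background adjustment and normalization by the authors used GCRMA. The submitters' processing notes also name RMA, and versions are not given in the sources used here. What was deposited is a table of log2 values for 24123 probe sets. Probe sets near its lowest value of 2.19 are held close to it, which understates their differences. Control and multi-symbol probe sets named no gene, so RPL10, RPL35A and RPL36 are not analysed here, and nor is RPS3. Names follow the platform annotation, updated by Entrez ID, and no coordinates are given.

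A gene's value was the average of the probe sets that reached a mean of 4. The groups were compared in R 4.3.3 by limma 3.58.1, two-sided and without a covariate (lmFit, then eBayes), with Benjamini-Hochberg adjustment over all 4730 genes. Spreads and correlations used Python 3.11.15, numpy 2.4.6, pandas 2.3.3 and scipy 1.17.1, and figures matplotlib 3.10.9. The fit was tested on simulated data. Members, lists and alternatives were chosen with earlier results of these data known. Named members are the 5 with the smallest p in each direction, the 5 with the largest and the 5 with the smallest SD, the 4 with the largest gap between probe sets, members of special function and those taken in by letters; others are named as examples. Other genes are those of each list of protein synthesis genes at p under 0.05, and the 10 most alike. Cell type markers are named as examples. The alternatives were other filters, normalizations, priors and probe set rules, array weights, a GAPDH covariate, the animal number as a block, and leaving out each animal. The number of arrays limits the precision, and the kinship of the animals was not modelled.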

Additional observations from a re-analysis of the deposited data

Results flagged for a closer look

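In each group of 5 animals, the highest and lowest value of every ribosomal protein gene was set against Dixon's 95% limit of 0.71, and 4 of 118 groups had an animal that stood apart. Chance alone gives about 1 in 20. RPL10A, a 60S protein, read 12.43 in H3 and 12.52 to 12.55 in the other H animals. RPL6 read 9.51 in L1 and 9.17 to 9.25 in the other L animals, and the deviation was in its dim probe set. RPS27 read 10.31 in L5 and 11.02 to 11.25 in the other L animals, again through the dim probe set. RPL30 read 5.32 in H1, a flag without content, since all 5 H values lay within 0.001 of each other.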

How the results depend on the processing

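No member was called at an adjusted p of 0.05 under any of the 13 alternatives or with any animal left out. The count at an unadjusted p under 0.05 was 0 throughout except for 1 gene, RPL7, with no filter, with array weights and without H2, a range of 0 to 1 over the animals left out. The median log2 difference ran from -0.023 to 0.0019 over the alternatives and from -0.042 to 0.0053 over the animals left out, turning sign when each array was centred on its median and without L4. Median SD kept between 0.112 and 0.119 with an animal left out, and median r between 0.373 (without L5) and 0.492 (without H2). Restricted to members with every probe set at 12 or above, a choice made after the data were seen, they were 0.106 and 0.557. Of 1716 values of 75 named genes, 151, of 42 genes, had the other sign. In 3 of them a size exceeded its standard error: RPS25 was at -0.058 with no filter, and OSGEP at 0.036 with no filter and with a mean of at least 3. The animal numbers were not taken as pairs. Correlations of same-numbered animals ran from -0.237 to 0.281, and those of other H and L animals from -0.318 to 0.401. These values cannot show which animals are sibs. With the number as a replicate block, 0 members were called, 0 had an unadjusted p under 0.05, and the median difference was -0.014. Array weights, the GAPDH covariate, the block and the prior give no median SD or r. With the brightest probe set alone, the sign differed in 9 of the 59 members, and in 14 the used probe sets lie over 4 log2 units apart.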
